A study of Mus musculus with 8 samples.

Results

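The genes examined here are 10 genes of replication licensing, of which Mcm2, Mcm3, Mcm4, Mcm5, Mcm6 and Mcm7 encode the subunits of the replicative helicase, Cdt1 and Cdc6 encode its loading factors, Mcm10 encodes a factor needed for its activation and Gmnn encodes geminin, an inhibitor of CDT1. They were chosen by name, and all 10 were found once each among the 55359 genes of the deposited table. Peritoneal mast cells (PMCs) were taken from wild-type mice of a mixed C57BL/6x129/Sv background and were left untreated, and RNA was sequenced from 8 cultures. One library each came from PMC-303 and PMC-306, lines that arose spontaneously from PMC cultures. The labels give no sex for the lines, and the study's karyotype of PMC-306 was male. The other 6 libraries came from primary WT PMCs, 3 of female and 3 of male mice, whose age is not stated. The comparison of lines with primary cultures asks which transcripts accompany spontaneous transformation of mast cells. Both PMC-303 and PMC-306 were grown with less fetal serum and less stem cell factor (SCF) than the primary cultures. In these libraries, medium and transformation therefore cannot be told apart. In a separate check by the study, protease mRNAs, size and granularity of PMC-306 did not change in medium like that of primary cultures. The KIT protein on its surface was lower in that medium. Licensing genes are not named in that check. Primary cultures were freshly isolated and kept for limited weeks, whereas each line is a single culture.

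Mature mast cells seldom divide in tissue, whereas PMCs proliferate for some time in culture with SCF and interleukin 3. In late mitosis and G1 phase, the origin recognition complex and CDC6 recruit CDT1 and the MCM2-7 hexamer to DNA, and pairs of hexamers are loaded there in an inactive form. During S phase they are activated together with CDC45 and the GINS complex, while CDT1 is degraded and geminin binds what remains of it, which prevents a second loading in the same cycle. Many of these genes are known to be transcribed under control of E2F factors when cells enter the cycle, and cells that have left the cycle lose most of their MCM mRNA. In RNA from whole cultures, fewer cycling cells and less RNA per cycling cell cannot be told apart.

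The letters TTTCCCGC, TTTGCCGC, TTTCGCGC and TTTGGCGC, which are forms of the E2F motif, were searched on both strands in windows of 250 bases before and 50 bases after the RefSeq gene starts. A window was at hand for 8 of the 10 members, not for Mcm4 and Gmnn, and Mcm7 had a window at each of 2 starts. At least 1 of these letter strings was in 6 of the 9 windows, those of Mcm3, Mcm5, Mcm6, Mcm7, Cdt1 and Cdc6, and in 2.26% of all 32851 windows of the same length. The window of Mcm2, that of Mcm10 and the inner window of Mcm7 held none of them. Stretches of each of the 6 are shown so that the sites can be compared letter by letter. They run in the direction of transcription, with the E2F letters of either strand in capitals, and each was matched exactly to GRCm39.
Mcm3, chr1:20890500-20890527, minus strand, after the start: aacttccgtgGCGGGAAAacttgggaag
Mcm5, chr8:75835974-75836005, plus strand, before the start: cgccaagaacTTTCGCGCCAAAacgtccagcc
Mcm6, chr1:128287472-128287562, minus strand, before the start: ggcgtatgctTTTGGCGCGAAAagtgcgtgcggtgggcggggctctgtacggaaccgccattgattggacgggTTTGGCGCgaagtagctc
Mcm7, chr5:138170293-138170320, minus strand, before the outer start: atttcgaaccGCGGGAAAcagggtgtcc
Mcm7, chr5:138170112-138170139, minus strand, after the outer start: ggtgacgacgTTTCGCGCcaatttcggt
Cdt1, chr8:123294776-123294803, plus strand, after the start: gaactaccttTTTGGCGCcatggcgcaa
Cdc6, chr11:98798829-98798856, plus strand, before the start: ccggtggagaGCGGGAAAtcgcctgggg
Mcm3 had a further match, TTTGGCGC from base 39 after the start, which is not in the stretch above. In Mcm5 and in the first site of Mcm6, a string on one strand overlaps a string on the other by 4 bases, so that TTTCGCGCCAAA and TTTGGCGCGAAA each carry a pair of matches. The letters of the NF-Y box, CCAAT, were in 7 of the 9 member windows and in 37.4% of all windows, and those of an Sp1 box, GGGCGG, were in 7 and in 35.7%. The letters TTTGAA of the CHR element were in the window of Mcm2 alone among the members and in 17.9% of all windows, and the E-box CACGTG was in 0 member windows and in 7.15% of all. A match describes these letters and does not show that a factor binds there.

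The estimated counts summed to between 15918758 and 24180226 per library, and members had between 53 and 6772 counts. Counts were scaled to CPM (counts relative to library size) with TMM-corrected library sizes (trimmed mean of M values), and TPM, which is also scaled to transcript length, was used where genes are compared with each other. Of 10 mast cell marker genes, all were at 1 CPM or more in the lines and in the primary cultures. Their summed level was 39254 CPM in PMC-303, 36015 CPM in PMC-306 and between 46512 and 75101 CPM in primary cultures. Tpsb2 had 177 and 20.9 CPM in PMC-303 and PMC-306, against 2857 to 10441 CPM in primary cultures. Fcer1a (2480 and 1323 CPM against 3789 to 5153 CPM) and Kit (1946 and 2055 CPM against 3359 to 3932 CPM) were also below every primary culture in both lines. Hdc was above every primary culture in PMC-303 (42.4 CPM against 6.19 to 18.1 CPM). In PMC-306 this held for Gata2 (662 against 495 to 600 CPM) and Mitf (252 against 200 to 243 CPM). Below every primary culture in only 1 line was Mrgprb2 in PMC-303 (1.85 against 3.49 to 13.6 CPM). The same held in PMC-306 for Ms4a2 (1095 against 1717 to 2089 CPM) and Cma1 (7756 against 8066 to 15696 CPM). Markers of T cells, neutrophils, eosinophils and fibroblasts or mesothelium summed to at most 3.22 CPM in any library. Of the B cell genes, Ighm had 21.4 CPM in PMC-303, above the primary range from 0.577 to 12.5 CPM, and 6.33 CPM in PMC-306, while Cd79a and Ms4a1 were at 0.0525 CPM or less in every library. Of 8 macrophage genes, 3 reached 1 CPM in the mean of the lines and 3 in that of the primary cultures. Their sum was 452 CPM in PMC-306 against 8.93 CPM in the library of PMC-303 and 7.54 to 68.8 CPM in primary cultures, with 426 CPM of it from Adgre1. Icam2 was also above the primary cultures in PMC-306, with 10.6 CPM against at most 1.10 CPM, and Cd68 had 13.9 CPM, within their range up to 17.8 CPM, while Csf1r, C1qa, C1qb and Cd14 were at 0.0982 CPM or less in PMC-306. The part of other cell types in the results below was not tested.

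All 6 helicase subunit genes were higher in both lines than in every primary culture. In sum they had 430 TPM in PMC-303 and 361 TPM in PMC-306, against 83.8 ± 15.3 TPM (SD, n = 6) in primary WT PMCs. The genes fell into 2 groups by size of the rise, with log2 differences from 1.63 to 1.81 for Mcm2, Mcm3 and Mcm4 and from 2.36 to 2.63 for Mcm5, Mcm6 and Mcm7 by limma. Each of the 10 members passed the test of both lines together, and all were higher (limma, adjusted p under 0.05 after Benjamini-Hochberg adjustment over 14529 genes), where 18.3% of all genes tested were called higher and 15.5% lower. In 23.0% of all genes tested both lines lay above every primary culture, and this held for all 10 members. The median log2 difference was 2.33 over the members and -0.01 over all genes tested. In the plot of members by library, the 2 lines stand above the 6 primary cultures for every gene.

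**Figure D1:**
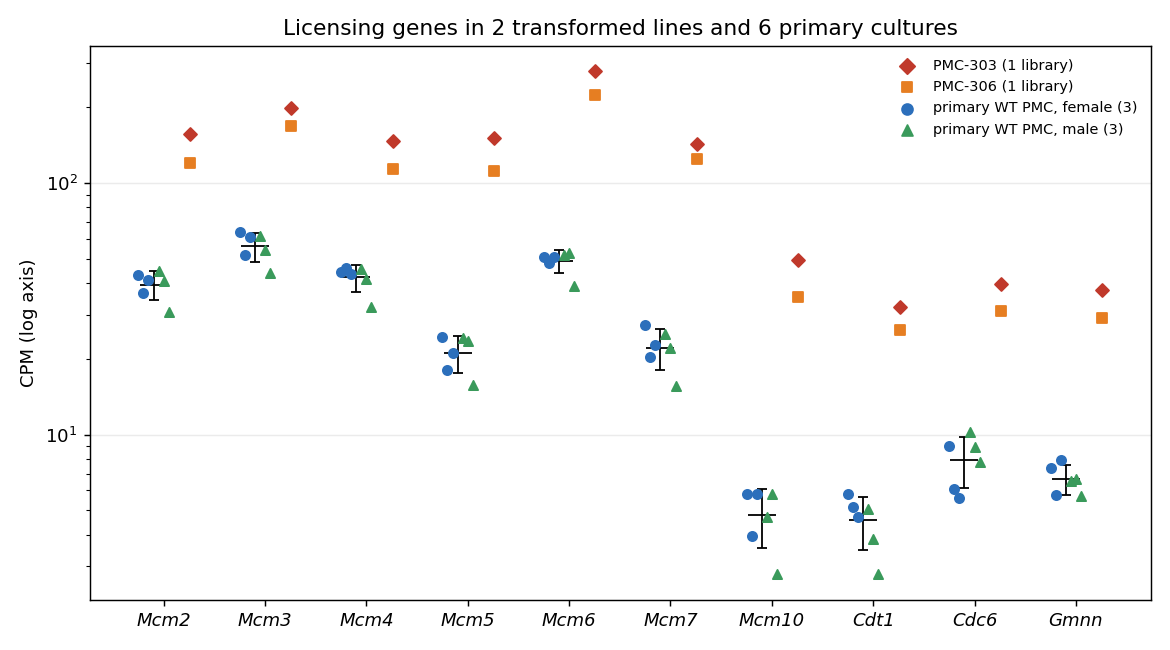
Level of each of the 10 licensing genes in CPM on a log axis, with 1 point per library for PMC-303, PMC-306, 3 female and 3 male primary WT PMC cultures. Horizontal bars with whiskers give mean and SD of the 6 primary cultures, and both lines lie above the highest primary culture for every gene, for Mcm6 at 279 and 224 CPM against at most 52.9 CPM.

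Mcm2 (chromosome 6 of GRCm39, 88860452 to 88875762) encodes the subunit that also binds histones. It had 157 CPM in PMC-303, 120 CPM in PMC-306 and between 30.8 and 44.6 CPM in primary cultures, with a median of 41.0 CPM. The lower line was therefore 2.69 times the highest primary culture, and limma gave a log2 difference of 1.81 ± 0.16 (SE, adjusted p = 0.000127). Mcm3 (chromosome 1, 20870791 to 20890536), whose protein neighbours MCM5 in the ring, reached 199.5 CPM in PMC-303 and 169 CPM in the other line. Primary cultures ranged from 43.8 to 63.8 CPM with a median of 57.5 CPM, so that the groups did not overlap, and the log2 difference was 1.72 ± 0.14 (SE, limma adjusted p = 0.000114). Mcm4 (chromosome 16, 15440211 to 15455264), which encodes a main target of the activating kinase CDC7, rose least of the 10 members. It had 147 CPM in PMC-303, 114 CPM in PMC-306 and 32.2 to 45.8 CPM in primary cultures, with a median of 44.0 CPM. Even here the lower line was 2.50 times the highest primary culture (log2 difference 1.63 ± 0.15, SE, limma adjusted p = 0.000166).

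Mcm5 (chromosome 8, 75836140 to 75856231) forms the gate of the ring with MCM2. It had 151 CPM in PMC-303, 111 CPM in PMC-306 and from 15.8 to 24.4 CPM in primary cultures, with a median of 22.4 CPM. The 2 groups were separated by a factor of 4.57, and the log2 difference was 2.63 ± 0.19 (SE, limma adjusted p = 7.92e-05). Mcm6 (chromosome 1, 128259311 to 128287516), which encodes the subunit that CDT1 contacts, was the most abundant member in both lines. The lines had 279 CPM (PMC-303) and 224 CPM (PMC-306), and it varied least among primary cultures, from 38.9 to 52.9 CPM with a median of 50.7 CPM. The log2 difference was 2.36 ± 0.13 (SE, limma adjusted p = 5.41e-05), with the lower line 4.23 times the highest primary culture. Mcm7 (chromosome 5, 138162844 to 138170684), whose protein is ubiquitylated when the helicase is taken off DNA, had 143 CPM in PMC-303, 125 CPM in PMC-306 and 15.6 to 27.3 CPM in primary cultures, with a median of 22.4 CPM. The difference of 2.61 ± 0.19 on the log2 scale (SE, limma adjusted p = 7.92e-05) rests on estimated counts that are not whole. Mcm7 overlaps Ap4m1 on the other strand by 448 bases, and how reads of the overlap were assigned was not tested.

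Since the 6 subunits are assembled in equal number, their balance was followed within each library as the log2 CPM of a subunit minus the mean log2 CPM of all 6. Gene length drops out when this value is compared between libraries, and library size drops out as well. Mcm2 was at -0.15 in PMC-303 and -0.21 in PMC-306, against 0.10 to 0.17 in primary cultures. Mcm3 had 0.20 and 0.28, against 0.55 to 0.70, and Mcm4 had -0.24 and -0.28, against 0.15 to 0.43. These 3 subunits were therefore below the primary range in both lines. Above it were Mcm5 with -0.21 and -0.32 against -0.91 to -0.65, Mcm6 with 0.68 and 0.69 against 0.34 to 0.52, and Mcm7 with -0.28 and -0.15 against -0.81 to -0.55.

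The shift between lines and primary cultures was -0.32 for Mcm2, -0.40 for Mcm3, -0.50 for Mcm4, 0.50 for Mcm5, 0.23 for Mcm6 and 0.48 for Mcm7. With 2 against 6 libraries an exact permutation test cannot go below a two-sided p of 0.0714, which each of the 6 subunits reached (Benjamini-Hochberg adjusted p = 0.0714), so that this design cannot pass 0.05. Because the 6 values of a library sum to 0, the subunits are not independent of each other. In TPM, the share of Mcm5 in the sum of the 6 subunits was 15.6% in PMC-303, 14.3% in PMC-306 and 10.5% ± 0.83 (SD, n = 6) in primary cultures. The share of Mcm4 was 11.1% and 10.7% in the lines, below 14.9% ± 0.91 (SD, n = 6), and that of Mcm3 was 17.8% and 18.9%, below 24.2% ± 1.19 (SD, n = 6). In primary WT PMCs the levels of the subunits therefore ranged from 8.81 TPM for Mcm5 to 20.2 TPM for Mcm3, and in the lines Mcm6 with 109 and 90.5 TPM took the first place.

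**Figure D2:**
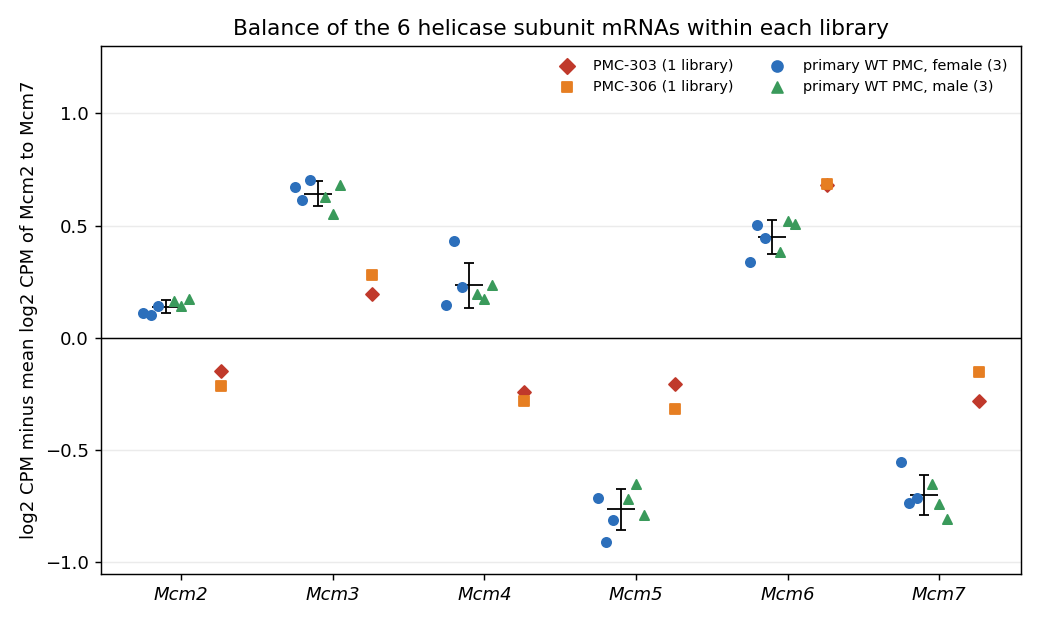
Balance of the helicase subunits, as log2 CPM of each subunit minus the mean log2 CPM of Mcm2 to Mcm7 in the same library, with 1 point per library and mean ± SD of the 6 primary cultures in black. Both lines lie below the primary cultures for Mcm2, Mcm3 and Mcm4 and above them for Mcm5, Mcm6 and Mcm7, with shifts between -0.50 and 0.50.

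The loading factors rose together with the helicase. Cdt1 (chromosome 8, 123294703 to 123300293) had 32.1 CPM in PMC-303, 26.03 CPM in PMC-306 and only 2.78 to 5.83 CPM in primary cultures, with a median of 4.88 CPM. The lower line was 4.46 times the highest primary culture, and the log2 difference was 2.68 ± 0.27 (SE, limma adjusted p = 0.000213). Cdc6 (chromosome 11, 98798507 to 98814766), an ATPase that closes the loading complex, had 39.6 CPM in PMC-303, 31.1 CPM in PMC-306 and 5.59 to 10.3 CPM in primary cultures, with a median of 8.38 CPM. For this gene the groups were separated by 3.03 times and the log2 difference was 2.16 ± 0.24 (SE, limma adjusted p = 0.000350). It was also the only member of which male culture 3 was not the lowest primary culture.

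Mcm10 (chromosome 2, 4994516 to 5017629) showed the largest rise of the 10 members. It had 49.6 CPM in PMC-303, 35.3 CPM in PMC-306 and 2.78 to 5.83 CPM in primary cultures, with a median of 5.24 CPM. The lower line was 6.04 times the highest primary culture, and the log2 difference of 3.14 ± 0.30 (SE, limma adjusted p = 0.000179) corresponded to 8.82-fold, with a 95% interval from 5.52- to 14.1-fold. Of all 14529 genes tested, 240 had a larger log2 difference. In spite of its name, MCM10 is not a subunit of the hexamer, and its mRNA was the least abundant of the members in primary cultures with 1.84 ± 0.61 TPM (SD, n = 6).

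Geminin mRNA rose with the factor that it inhibits. Gmnn (chromosome 13, 24935812 to 24946084) had 37.5 CPM in PMC-303, 29.0 CPM in PMC-306 and 5.72 to 7.96 CPM in primary cultures, with a median of 6.60 CPM. The groups did not overlap, and the log2 difference was 2.30 ± 0.17 (SE, limma adjusted p = 7.92e-05). The number of Cdt1 counts per Gmnn count was 0.855 in PMC-303, 0.898 in PMC-306 and from 0.486 in male culture 3 to 0.893 in female culture 2. PMC-303 thus lay within the primary range and PMC-306 just above it. On the log2 scale the ratio was 0.38 higher in the lines than in primary cultures, whose SD was 0.33, and an exact permutation test gave a two-sided p of 0.143, which is above the smallest of 0.0714 that this design allows.

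**Figure D3:**
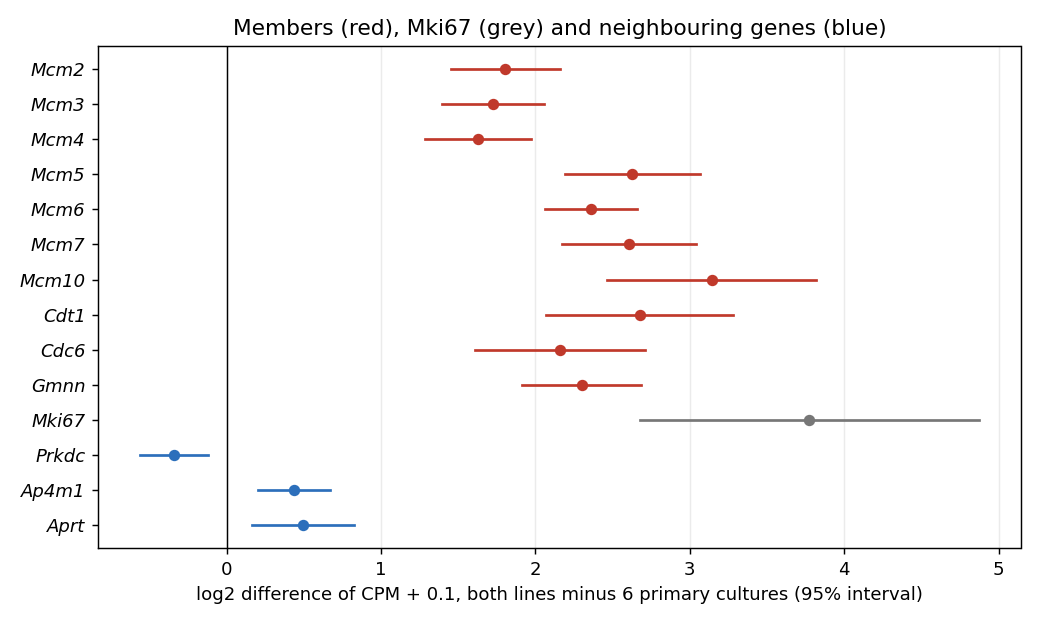
Difference of both lines from the 6 primary WT PMC cultures by limma on log2(CPM + 0.1), with 95% intervals, for the 10 members in red, Mki67 in grey and 3 neighbouring genes in blue. Members lie between 1.63 for Mcm4 and 3.14 for Mcm10, while the neighbours lie between -0.34 and 0.49.

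The 2 lines shared the direction for every member and also differed from each other. Compared with the mean of the primary cultures, which serve as controls for both lines, the members were 3.48-fold (Mcm4) to 10.1-fold (Mcm10) higher in PMC-303 and 2.705-fold (Mcm4) to 7.20-fold (Mcm10) higher in PMC-306. All 10 members were higher in PMC-303 than in PMC-306, with ratios from 1.14 for Mcm7 to 1.41 for Mcm10 and a median of 1.28. Over all genes tested the median of this ratio was 1.04, and 55.5% of genes were above 1. For Mcm10 the 95% interval of the ratio from the counts, by the exact Clopper-Pearson method, was 1.28 to 1.55, and for Mcm7 it was 1.09 to 1.21. The interval did not include 1 for any of the 10 members, but it covers counting error only. No member had a ratio between the lines above that of the highest to the lowest primary culture, 1.36 (Mcm6) to 2.10 (Mcm10). That range takes the extremes of 6 cultures, and male culture 3 was the lowest for 9 members. The next lowest cultures had 41.6 CPM of Mcm4 and 48.1 CPM of Mcm6, near the highest with 45.8 and 52.9 CPM. It is therefore a wide yardstick for 2 libraries. With 1 library of each line there is no replicate check of this difference.

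Mcm5 and Cdt1 lie on chromosome 8. Part of the PMC-303 cells carry an additional copy of this chromosome by the study's karyotypes. The ratio of PMC-303 to PMC-306 was 1.35 for Mcm5 and 1.23 for Cdt1, among ratios from 1.14 to 1.41 for the 8 members on other chromosomes. Over the 763 tested genes of chromosome 8 the median of this ratio was 1.15, against 1.03 over the other autosomes. The part of the additional chromosome in the values of Mcm5 and Cdt1 was not tested, and both genes were 5.24-fold and 5.61-fold higher than the primary mean in PMC-306 as well.

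The neighbours of 3 members, Mcm4, Mcm7 and Cdt1, were followed and moved less than these members. Prkdc, which encodes the catalytic subunit of the DNA-dependent protein kinase, starts 434 bases from Mcm4 and is transcribed in the other direction. It had 87.6 CPM in PMC-303, 86.7 CPM in PMC-306 and 101 to 123 CPM in primary cultures, so that it lay below all of them where Mcm4 lay above. The log2 difference of Prkdc was -0.34 ± 0.10 (SE, limma adjusted p = 0.0254). This call was lost in 6 of 17 alternatives, among them without PMC-303 (-0.35, adjusted p = 0.0856) and without PMC-306 (-0.33, adjusted p = 0.101), whereas Mcm4 was called in all of them. Ap4m1, which overlaps the annotated 5′ end of Mcm7 and encodes an adaptor subunit of vesicle transport, had 28.4 and 32.4 CPM in PMC-303 and PMC-306 and 20.4 to 25.2 CPM in primary cultures. Its log2 difference was 0.43 ± 0.10 (SE, limma adjusted p = 0.0122, and 0.0956 without PMC-306), against 2.61 for Mcm7. Aprt, which encodes an enzyme of adenine salvage and ends close to the end of Cdt1, had 40.9 and 44.7 CPM against 25.6 to 39.1 CPM, with a log2 difference of 0.49 ± 0.15 (SE, limma adjusted p = 0.0301). Without PMC-303 or PMC-306 the adjusted p of Aprt was 0.0715 and 0.152. The hairpins of Mir106b, Mir93 and Mir25 lie inside Mcm7 and were listed at 0 in all 8 libraries. A count of 0 allows up to 0.123 to 0.187 CPM by counting error alone. These entries are only 82 to 88 bases long, and whether such libraries capture them was not tested, so that 0 does not show their absence.

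Reads of each member fell mostly on 1 protein-coding transcript. The main transcript held 97.8% ± 1.35 of the Mcm3 count and 99.8% ± 0.59 of the Mcm4 count in primary cultures (SD, n = 6), and 98.0% and 99.5% in PMC-303, and the Mcm2 shares of 97.5% and 96.1% in the lines lay within the primary range. For Mcm5, the main transcript held 68.0% in PMC-303 and 66.2% in PMC-306, below the primary range of 71.9% to 82.2%. The main Mcm6 transcript was at 94.3% and 93.5% in the lines and at 89.0% to 93.0% in primary cultures, and thus above their range. For Mcm7, Mcm10, Cdt1, Cdc6 and Gmnn the shares in the lines lay within the primary range or, in Gmnn, with 95.1% and 96.9% near its upper end of 97.4%. In Cdt1, of which the primary cultures had few counts, the share ranged from 51.5% to 95.1% among them, and a transcript with a retained intron held up to 46.7%. Reads common to several transcripts were divided by estimation, and these shares were not tested.

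Per transcript length, the order of the members in primary WT PMCs was Mcm3, Mcm6, Mcm2, Mcm4, Mcm7, Mcm5, Gmnn, Cdc6, Cdt1 and Mcm10. Mcm3 with 20.2 ± 3.33 TPM (SD, n = 6) exceeded Mcm6 with 17.4 ± 3.17 TPM in 6 of 6 cultures. Mcm2 with 12.9 TPM exceeded Mcm4 with 12.5 TPM in 5 of 6 cultures, Mcm4 exceeded Mcm7 with 11.98 TPM in 4, and Mcm5 with 8.81 TPM exceeded Gmnn with 8.74 TPM in 2, so that these neighbours were not separated in every culture. The 3 least abundant were Cdc6 with 3.26 ± 0.86 TPM, Cdt1 with 2.61 ± 0.95 TPM and Mcm10 with 1.84 ± 0.61 TPM (SD, n = 6). In the lines Mcm6 was first, followed by Mcm3 and Mcm7, which had 76.4 and 75.8 TPM in PMC-303 and 68.2 and 69.1 TPM in PMC-306, so that their order differed between the lines, and Cdc6 with 15.6 and 12.3 TPM became the least abundant.

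Primary cultures also differed among themselves, and most members moved together. Male culture 3 had the lowest level of 9 members and was under the primary mean for all 10, with a median of 77.1% of it. Female culture 1 was above the mean for all 10, with a median of 113%, and had the highest level of 5. The coefficient of variation ranged from 10.5% for Mcm6 to 26.05% for Mcm10, and was 41.7% for the proliferation marker gene Mki67. Male culture 3 had 28.6 CPM of Mki67, the lowest of all, and female culture 3 had 106 CPM, the highest, while the lines had 1015 CPM (PMC-303) and 835 CPM (PMC-306). The rise of Mki67 in the lines was 3.77 ± 0.48 on the log2 scale (SE, limma adjusted p = 0.000667).

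**Figure D4:**
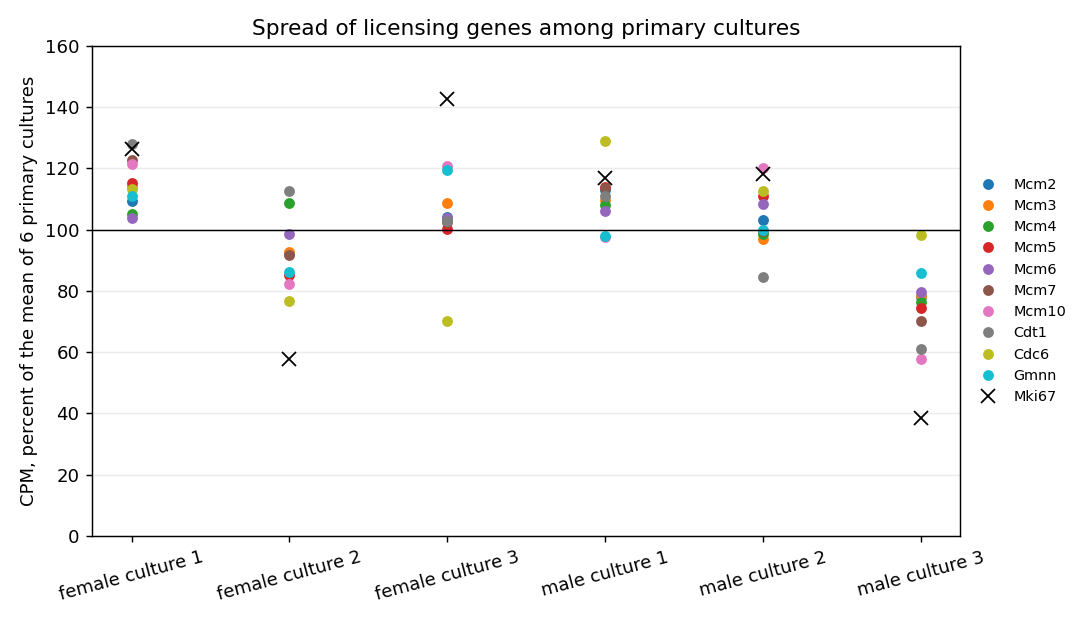
Level of the 10 members and of Mki67 in each primary WT PMC culture, as percent of the mean CPM of the 6 cultures. All 10 members are under 100% in male culture 3 and over 100% in female culture 1, and Cdc6 goes apart from the others in female culture 3 at 70.3%.

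Over the 6 primary cultures, Gmnn was in the same order as Mki67, with a Pearson r of 0.88 (exact permutation p = 0.00278, adjusted over 10 members 0.0278) and a Spearman rho of 1.00 (exact permutation p = 0.00278, adjusted 0.0278). Without female culture 2 and male culture 3, the 2 cultures farthest from the median of Mki67, r was 0.97 for Gmnn. Mcm10 had r = 0.96 (exact permutation p = 0.00833, adjusted 0.0417) and rho = 0.94 (exact permutation p = 0.0167, adjusted 0.0833), and without these cultures r was 0.53. The other 8 members did not pass the adjusted threshold. For the helicase subunits r was between 0.69 (Mcm4) and 0.94 (Mcm2), but without the same cultures it fell to between -0.84 and 0.34, so that it rests on them. Cdc6 had r = 0.18 (exact permutation p = 0.753) and Cdt1 had r = 0.63 (exact permutation p = 0.272).

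Between female and male primary cultures no difference of a member was detected. Female cultures had on average 58.9 ± 6.11 CPM of Mcm3 and male cultures 53.2 ± 8.83 CPM (SD, n = 3 each), a log2 difference of 0.15 with a 95% interval from -0.18 to 0.49. The mean was higher in female cultures for 9 of the 10 members, and Cdc6 was the exception with 6.90 ± 1.84 CPM in female and 9.01 ± 1.23 CPM in male cultures (SD, n = 3 each). Limma called 0 members (adjusted p = 1.00 for each), and 0 had an unadjusted p under 0.05, where 6 of 13710 genes or 0.0438% were called in either direction. With voom weights these counts were 0 as well, while 1 member had an unadjusted p under 0.05 with deposited TPM, without female culture 1 and without male culture 1. The lowest unadjusted p by limma were 0.106 for Cdc6, with a log2 difference of -0.40 and an interval from -0.92 to 0.11, and 0.114 for Cdt1, with 0.45 and an interval from -0.14 to 1.04. These intervals leave room for differences that 3 cultures of each sex cannot resolve.

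Other genes of replication were followed by role in lists that do not include the members. Of 62 genes tested, 53 were higher in both lines together and 0 lower by limma, with a median log2 difference of 1.504. Leaving out PMC-306 gave 2 lower genes, Rfc2 (-0.35, adjusted p = 0.0234 by limma) and Pold4 (-0.50, adjusted p = 0.0152 by limma). The 12 genes that activate the loaded helicase were all higher, with a median of 1.90. Among them, the GINS subunit Gins1 had 11.5 and 10.1 CPM in PMC-303 and PMC-306 and 0.525 to 1.43 CPM in primary cultures (log2 difference 3.30), and Ticrr, which brings CDC45 to the helicase, rose by 3.19 and Cdc45 itself by 2.50. The smallest rises of this list were those of Topbp1 (1.20) and Gins4 (0.55).

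Origin recognition genes rose less, with 6 of 7 higher and a median log2 difference of 0.72. Orc1, the subunit whose level changes in the cell cycle, had 9.96 CPM in PMC-303, 3.58 CPM in PMC-306 and 0.659 to 1.42 CPM in primary cultures, a log2 difference of 2.63 ± 0.42 (SE, limma adjusted p = 0.00201). Orc6 rose by 1.55 and Orc5 by 0.93, whereas Orc3 rose by only 0.20 and Orc2 had a difference of -0.08 (limma adjusted p = 0.713). Of the relatives and partners of the MCM proteins, 4 of 6 had sufficient counts, Gmnc and Mcidas did not, and 3 of the 4 were higher. Mcm8, a helicase of recombination, had a log2 difference of 1.45, the MCM-binding protein gene Mcmbp 0.92 and the acetyltransferase gene Kat7 0.46. Mcm9, the partner of Mcm8, had 20.5 and 23.5 CPM in the lines against 21.0 to 25.7 CPM, with a log2 difference of -0.05 (limma adjusted p = 0.759).

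At the fork, 14 of 15 genes were higher with a median of 1.56, led by Clspn (2.99), Timeless (2.89) and Lig1 (2.52), the genes of the checkpoint mediator claspin, its partner at the fork and DNA ligase I. Rfc2, a subunit of the clamp loader, had a log2 difference of -0.15 (limma adjusted p = 0.279) and Rfc1 rose by 0.81. Among 12 genes of the polymerases 10 were higher, with a median of 1.39, led by the primase gene Prim1 (3.08), Pole (2.56) and Pole2 (2.06), while Pole3 (0.26) and Pold4 (-0.27) did not pass the test (limma adjusted p = 0.204 and 0.118). The list of turnover of licensing factors had 8 of 12 higher and a median of 0.84. Its largest rises were those of Cdc20 (3.47) and Fbxo5 (3.33), an activator and an inhibitor of the anaphase-promoting complex, and Ccnf (3.03), which encodes cyclin F, and its lowest values were those of the ligase genes Ddb1 (-0.08, limma adjusted p = 0.561) and Cul4a (-0.01, limma adjusted p = 0.955). Each list is described by its counts and median, beside 18.3% of all genes called higher and a median of -0.01, and the difference between lists was not tested.

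**Figure D5:**
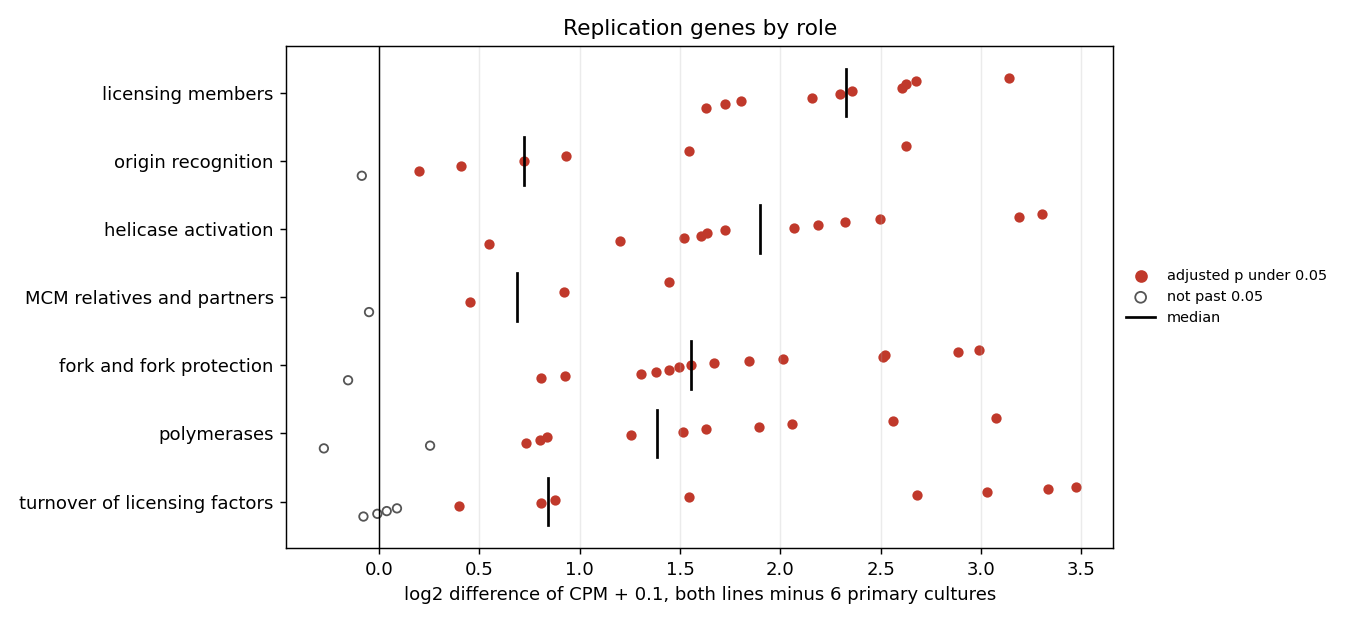
Log2 difference of both lines from the 6 primary cultures for the 10 members and for the 62 tested genes of 6 replication lists, 1 point per gene, filled where the adjusted p by limma was under 0.05. Black lines give the median of each list, which is 2.33 for the members, 1.90 for helicase activation and 0.72 for origin recognition.

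Outside the members, the genes most like the helicase subunits among primary cultures were sought by Pearson r with the mean centred log2 level of Mcm2 to Mcm7 over 6 libraries, with 10 CPM in the primary mean as the lower limit. Male culture 3 was lowest in this profile at -0.38 and female culture 1 highest at 0.17. The 10 genes with the highest r were Arfgap2 (0.991), Zfp236 (0.991), Ddx6 (0.991), Manba (0.986), Nusap1 (0.981), Igf1r (0.980), Strbp (0.980), Lpgat1 (0.980), Bmp7 (0.979) and Prkcb (0.979). Over so few libraries, which share depth and culture, these values describe the order of the cultures. In the lines these genes did not all rise. Nusap1, which encodes a protein of the mitotic spindle, rose by 3.57 on the log2 scale and Strbp by 0.94 (limma adjusted p = 0.000430 and 0.00392), whereas Prkcb fell by 0.37 (limma adjusted p = 0.0358) and the other 7 did not pass the test.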

How the data were processed

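RNA-seq libraries of 2 lines and 6 primary WT PMC cultures were used, grouped by the labels. According to the study's methods and the submitters' processing notes, the authors prepared stranded total RNA libraries, trimmed reads with Trim Galore 0.6.7, aligned them to GRCm39 with STAR 2.7.9a and quantified them with Salmon 1.5.2. Estimated counts of genes and transcripts, without normalization, and TPM were deposited by the authors. A spreadsheet program had rewritten 3.37% of gene count cells (3 of 80 member cells), which were restored; afterwards gene counts and the sum of their transcripts differed by at most 1.53. Of TPM cells, 20.8% had been rewritten with several points or as dates and were restored as well. In 9437 TPM cells the decimal point was placed with the help of the counts, on which these cells therefore depend. As the deposited tables did not hold plain counts, limma 3.58.1 in R 4.3.3 was used on log2(CPM + 0.1) with TMM library sizes and a mean-variance trend, for genes with about 10 counts in enough libraries and 15 in total. Differences are on this scale and understate changes of low genes.

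Single values were tested with exact permutation tests, two-sided. The members and lists were chosen with earlier results of these data known. Named are the members, their neighbours, Mki67 and the 10 genes most like Mcm2 to Mcm7 with at least 10 CPM. Of each list, the 3 largest and 2 smallest differences and every gene called lower are named. Gins1 and other list genes fall under this rule. Mast cell, macrophage and B cell markers are named beside their levels. Some marker genes are not named. Cultures were labelled as separate biological replicates, and pairs of primary libraries differed by more than sampling noise (chi-square per degree of freedom 20.6 to 68.1). On simulated libraries with 200 genes changed 4-fold, limma recovered 100% in the comparison of lines, with 10 false calls among 14336 genes. The simulation used 1 fixed spread for all genes, left low genes unchanged and gave both lines the same change. It does not measure recovery for lines that differ from each other. Positions are from GENCODE M39, whose gene identifiers matched those of all members, and promoters from RefSeq (GRCm38.p6 table, placed on GRCm39 by exact match). Alternatives were other scalings, offsets, filters, units, weights and leaving out each library. The intervals of the ratios between the 2 lines cover counting error only, whereas those by limma rest on the spread between libraries. Python 3.11.15, numpy 2.4.6, pandas 2.3.3 and scipy 1.17.1 were used.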

Additional observations from a re-analysis of the deposited data

Results flagged for a closer look

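Among the 6 primary WT PMC cultures, 18 measures of the members and Mki67 were examined with Dixon's criterion for single distant cultures. It marked 3 of them, and about 0.9 would be marked by chance. In male culture 3, Mcm4 was at 32.2 CPM, below the next value of 41.6 CPM. In that culture Mcm6 was at 38.9 CPM, and 48.1 CPM was the next value. Mcm4 relative to the mean of the 6 subunits was highest in female culture 2 at 0.43 on the log2 scale, where the next culture had 0.23. In the same culture Mki67 had 42.7 CPM. The cause of these values was not tested.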

How the results depend on the processing

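The 10 members were called higher in the lines under each of 17 alternatives, with adjusted p by limma of at most 0.00720, and the largest change was that of Mcm10, between 2.89 without PMC-303 and 3.39 without PMC-306. Of 637 values recomputed in all, 620 kept their direction and their side of the threshold or stayed within the replicate spread, 0 were reversed, and 15 of the others were calls of Prkdc, Ap4m1 and Aprt that were lost. List genes called lower rose from 0 to 2 without PMC-306, the highest of the values from 0 to 2 when a library was left out, and list genes called higher numbered 47 to 53. Mcm6 in PMC-306 moved from 2.19 to 2.37 with deposited TPM, a setting under which the median over all genes shifted by 0.14 (0.11 with total counts). The count of calls over all genes went from 4920 to 3353 with TPM, 3031 with male cultures only and 2160 with female cultures only, and 54.2% of calls were higher in the fit reported, 67.2% with total counts and 70.8% with TPM. With the replicate block, 0 members differed between sexes, as without it, and 5 genes were called in place of 6. The numbers are not taken to pair cultures, since deviations of cultures with the same number correlated at 0.36, -0.20 and 0.28. The Cdt1 to Gmnn difference ranged from 0.23 to 0.53. Depth limits Cdt1, Mcm10 and Cdc6 in primary cultures, with as few as 53 counts, and 1 library per line leaves the lines' own spread unknown.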
